A study of Mus musculus with 33 samples.

Results

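The genes of the oxytocin, vasopressin, corticotropin-releasing hormone (CRH) and thyrotropin-releasing hormone (TRH) systems were examined in bulk RNA-seq of the mouse posterior hypothalamus (PH) and preoptic area (POA). They are 9 of the 41565 gene-named entries of the deposited table, chosen by symbol: the peptide genes *Oxt*, *Avp*, *Crh* and *Trh*, the receptor genes *Oxtr*, *Avpr1a*, *Crhr1* and *Crhr2*, and *Crhbp*, which encodes the CRH-binding protein. The study asked how the hypothalamic transcriptome differs with time after the ovaries are removed. Each of the 33 libraries was made from mRNA of dissected, flash-frozen tissue of an adult WT female mouse, and the source texts do not state how many animals contributed tissue from both regions. The PH libraries came from 4 intact mice, 6 mice 14 days after bilateral ovariectomy (OVX) and 6 mice 4 months after OVX, and the POA libraries from 5, 6 and 6 such mice. Intact mice were killed in diestrus. Mice 4 months after OVX were older than the other mice at collection and had no intact group of their own age, so that age and time since OVX cannot be told apart in the comparisons with that group. Control libraries are called sham in their titles and intact elsewhere, and 1 POA library whose time label reads only 14 was placed in the 14-day group by its title. Every group holds 2 or 3 libraries of each of the 2 batches named in the labels, which do not say what a batch is.

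Oxytocin and vasopressin are made by magnocellular neurons of the paraventricular and supraoptic nuclei, which release them into the blood from the posterior pituitary, and by smaller neurons that act within the brain. Vasopressin is also a peptide of the suprachiasmatic nucleus, which lies below the POA. CRH and TRH from parvocellular neurons of the paraventricular nucleus drive the pituitary release of ACTH and thyrotropin, and both peptides are also made by neurons elsewhere in the hypothalamus. Oxytocin neurons carry estrogen receptor β, and estrogen is known to raise *Oxtr* in parts of the rodent forebrain.

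*Oxt* and *Avp* are neighbors on mouse chromosome 2 and arose from a duplication. In GRCm39, *Oxt* (ENSMUSG00000027301.9) lies at chr2:130418091-130418974 on the + strand and *Avp* (ENSMUSG00000037727.8) at chr2:130422540-130424640 on the − strand. Their 3′ ends face each other across 3565 bases, with no annotated gene between them. The hormone-coding stretches of the first coding exon are shown because they show how close these genes are. The 36 bases encode the 9 residues of the hormone, the glycine used for amidation and the basic pair at which the precursor is cleaved, at chr2:130418187-130418222 (+) and chr2:130424357-130424392 (−). Capitals mark the 5 bases that differ, which fall in 3 codons and alter 2 residues.
Oxt: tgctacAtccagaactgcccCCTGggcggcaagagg
Avp: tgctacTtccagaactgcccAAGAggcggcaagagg

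*Trh* (ENSMUSG00000005892.6, chr6:92219021-92221631, − strand) encodes a precursor with 5 copies of the TRH progenitor. The copies are shown because 1 transcript yields several hormone molecules. Each is printed with its flanking codons, and the capitals mark the 4 codons for glutamine, histidine, proline and the amidation glycine, between pairs of basic residues. The capitals lie at chr6:92220075-92220086, chr6:92219979-92219990, chr6:92219844-92219855, chr6:92219790-92219801 and chr6:92219697-92219708.
Copy 1: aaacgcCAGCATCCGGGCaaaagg
Copy 2: aaacgaCAGCACCCTGGCcgacgt
Copy 3: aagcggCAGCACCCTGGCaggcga
Copy 4: aagaggCAGCATCCAGGCcggagg
Copy 5: aaacgtCAGCATCCTGGCaaaagg

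*Crh* (ENSMUSG00000049796.6) lies at chr3:19747565-19749655 on the − strand. The genes of the receptors are *Oxtr* (chr6:112450644-112468040, −), *Avpr1a* (chr10:122284404-122289659, +), *Crhr1* (chr11:104023164-104066351, +) and *Crhr2* (chr6:55067032-55110027, −), and *Crhbp* lies at chr13:95567879-95581841 (−). Annotated noncoding genes overlap *Avpr1a*, *Crhr1*, *Crhr2* and *Trh* on the opposite strand. The library kit keeps the strand, but whether strand was used in counting is not given in the sources used here.

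The deposited values are a normalized expression signal on a linear scale with a floor of 22.1 for genes without measurable expression. They are not counts, the depth is unknown and no counting error can be given. All 9 genes lay above 2 times the floor in every library and were tested in both regions. The levels in the PH and the POA were not compared with each other. The reason is that 108 unexpressed entries follow 1 line across the libraries, as after subtraction of 1 component, and 83.6% of that component's variation lies between the regions. Differences were fitted with limma on log2 values, with a surrogate variable (SV1) as the covariate and *P* adjusted over every gene that entered the fit of a region (PH 21992, POA 21361). An adjusted *P* that rounds to 1 is printed as 1.00. The labels do not say whether samples came from separate surgical cohorts, so *P* values measure the spread between these libraries. In whole tissue, fewer cells of a type cannot be told apart from less RNA per cell.

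Several libraries stood apart. Replicate 5 of the PH 14 days after OVX had an SV1 score of 0.785, against at most 0.195 in the other PH libraries. Summed thalamus markers (7 genes) reached 45031 in replicate 3 of the PH 4 months after OVX and 42913 in replicate 6 of the POA 14 days after OVX, and at most 29820 in the other 31 libraries. Summed anterior pituitary markers (6 genes, 4 of them tested) were 211 to 7151 over all libraries, highest in replicate 4 of the POA 14 days after OVX (7151) and replicate 4 of the intact PH (4095). Their median was 1518 in the POA at 14 days, against 259.7 in the intact POA and 258 at 4 months, and the 4 tested genes had a median log2 difference of 2.12 between 14 days and intact, with 0 of 4 called by limma and 3 of 4 at an unadjusted *P* under 0.05. In the PH their median was 586 at 14 days, 352 in intact libraries and 263 at 4 months. The part of pituitary tissue in the values at 14 days was not tested. The 5 transcription factors of the paraventricular and supraoptic nuclei (*Sim1*, *Otp*, *Pou3f2*, *Arnt2* and *Sim2*) and all 9 suprachiasmatic markers exceeded 2 times the floor in every library of both regions.

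No member passed the test in any comparison between groups. Over the 6 comparisons within a region, 0 of 54 tests had an adjusted *P* under 0.05 (limma, Benjamini-Hochberg), 2 had an unadjusted *P* under 0.05, and adjusted *P* ran from 0.709 to 1.00. No pair of groups was without overlap for any member, and the share of all tested genes without overlap was not determined. Few genes of any kind were called: 0% of all tested genes (0 of 21992) for the PH at 14 days against intact, 0.0318% for the PH at 4 months, 0.00909% for the PH at 4 months against 14 days, 0.00468% for the POA at 14 days, 0.0936% for the POA at 4 months and 0.0281% for the POA at 4 months against 14 days. An unadjusted *P* under 0.05 was found for between 3.04% and 8.5% of all tested genes in these comparisons. A count of 0 among 9 members is therefore near the background of this fit. The paper, which used DESeq2, reports more protein-coding genes at an FDR under 0.05 in each of these 6 comparisons. The low shares are thus those of limma on the deposited values. The median log2 difference of the 9 members was largest in the PH at 4 months against 14 days (−0.19, with −0.01 over all tested genes) and in the PH at 14 days against intact (0.14, with 0.00 over all). Both directions depend on SV1, since without a covariate these medians were 0.05 and −0.07, and within batches 1 and 2 they were −0.31 and 0.52 for the first and 0.24 and −0.32 for the second. The median lay between −0.03 and 0.01 in the 3 POA comparisons.

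**Figure D1:**
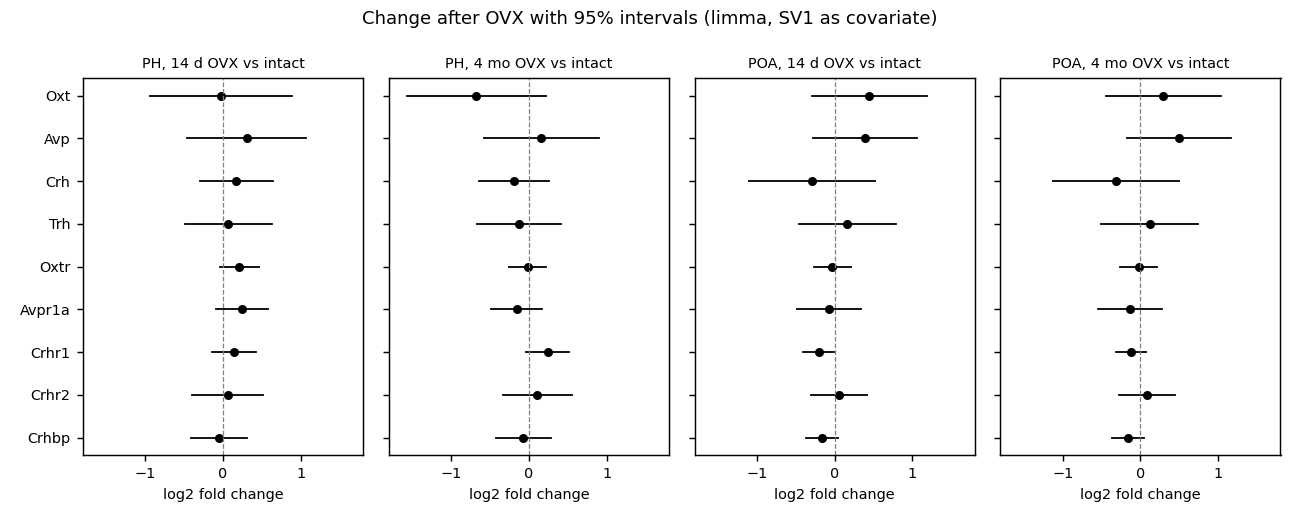
Log2 differences from intact (x axis) of the 9 genes (y axis), with 1 panel per region and time after OVX. Points are limma estimates with SV1 as the covariate and lines are 95% confidence intervals. The intervals of *Oxt*, *Avp* and, in the POA, *Crh* are wider than those of the receptors, and only the interval of *Crhr1* in the POA at 14 days lies wholly on 1 side of 0.

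*Oxt* was among the most variable genes in both regions. In the PH, it measured 910.0, 706, 2049 and 2490 in the intact libraries. The lowest, median and highest values were 202, 1323 and 1911 at 14 days and 258, 1106 and 2523 at 4 months. The groups overlapped widely, and both OVX groups held 2 libraries below every intact one. The log2 difference from intact was −0.67 ± 0.41 (SE) at 4 months (0.627-fold, 95% interval 0.338 to 1.16, adjusted *P* = 0.871 by limma). Within batches 1 and 2, the difference was −0.41 and −0.63. At 4 months against 14 days it was −0.65 ± 0.39, but 0.05 with batch in place of SV1, and −0.75 and 0.85 within batches 1 and 2. Batch 2 at 14 days holds the library with the extreme SV1 score, whose *Oxt* value of 202 was the lowest of the region.

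In the POA, *Oxt* measured 695, 777, 3840, 1944 and 2373 in the intact libraries. It ran from 452 to 5196 with a median of 1995 at 14 days, and from 561 to 3387 with a median of 1665 at 4 months. Intact libraries lay both near the bottom and near the top of the values seen after OVX. The log2 difference from intact was 0.44 ± 0.34 at 14 days (adjusted *P* = 0.878 by limma), and 0.15 and 0.51 within batches 1 and 2. At 4 months it was 0.29 ± 0.34 (1.22-fold, 95% interval 0.733 to 2.05, adjusted *P* = 0.856 by limma), with 0.31 in batch 1 and −0.02 in batch 2. The difference between the regions in the response at 4 months was not called (PH minus POA −0.96 ± 0.53, 95% interval 0.243-fold to 1.09-fold, adjusted *P* = 1.00 by limma). Neither interaction called any of the 9 members, with 0.00452% of 22136 genes called at 14 days and 0.00904% at 4 months. Both took the PH and POA libraries as independent, although some animals may have given both.

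*Avp* measured 1040.2, 928, 1704 and 1826 in the intact PH. It ran from 301 to 2382 with a median of 1569 at 14 days and from 552 to 3474 with a median of 1647 at 4 months, and both ranges enclosed all intact values. The fold against intact was 1.23 at 14 days (95% interval 0.727 to 2.09) and 1.12 at 4 months (0.668 to 1.87). The direction at 14 days turned with the covariate, as the log2 difference was 0.30 with SV1 but −0.15 without it, 0.67 within batch 1 and −0.97 within batch 2. At 4 months it was 0.16 with SV1, 0.29 without it, and 0.05 and 0.52 within the batches. In the POA, *Avp* measured 767, 846, 3605, 2252 and 1776 in the intact libraries. The range was 472 to 6382 with a median of 1544 at 14 days and 1064 to 2493 with a median of 1983 at 4 months. The highest *Avp* value of the series, 6382, came from the POA library with the high thalamus markers, which also had the highest summed suprachiasmatic markers (7717, against at most 5803 in the other POA libraries). Log2 differences from intact were 0.39 ± 0.31 at 14 days and 0.49 ± 0.31 at 4 months (1.41-fold, 95% interval 0.884 to 2.25, adjusted *P* = 0.712 by limma). Within batches, the difference at 4 months was 0.76 in batch 1 and −0.01 in batch 2.

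*Crh* in the PH was 229, 131, 206 and 254 in the intact libraries, 126 to 266 with a median of 222 at 14 days, and 130.2 to 259 with a median of 158 at 4 months. The 3 ranges were nearly the same. The log2 difference between 4 months and 14 days was −0.36 ± 0.21 (adjusted *P* = 1.00 by limma), with −0.45 in batch 1 and 0.03 in batch 2. In the POA, *Crh* was 309, 145, 368, 248 and 392 in the intact libraries, 87.7 to 429 with a median of 237 at 14 days, and 145 to 320.0 with a median of 236 at 4 months. The lowest POA value, 87.7, came from the same library as the highest *Avp* value. At 4 months against intact, the log2 difference was −0.31 ± 0.38 (0.807-fold, 95% interval 0.460 to 1.42, adjusted *P* = 0.862 by limma), with 0.0033 in batch 1 and −0.49 in batch 2. In a fit on batch and the scores of the subtracted component, chosen after seeing the data, it was −0.61 (adjusted *P* = 0.0793 by limma), which is the smallest adjusted *P* of any member in any comparison of groups or alternative.

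*Trh* was 2253, 1493, 1754 and 2479 in the intact PH, 628 to 2801 with a median of 1940.2 at 14 days, and 1051 to 3378 with a median of 1811 at 4 months. The POA values were 1644, 1647, 3165, 1961 and 2832 in the intact libraries, 1452 to 4204 with a median of 2440.3 at 14 days, and 1280.1 to 3201 with a median of 2382 at 4 months. The ranges after OVX enclosed all intact values in both regions. Over the 6 comparisons, its log2 differences ran from −0.19 to 0.16, with adjusted *P* of 0.940 or more by limma. Within single batches they ran from −0.51 to 0.61.

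**Figure D2:**
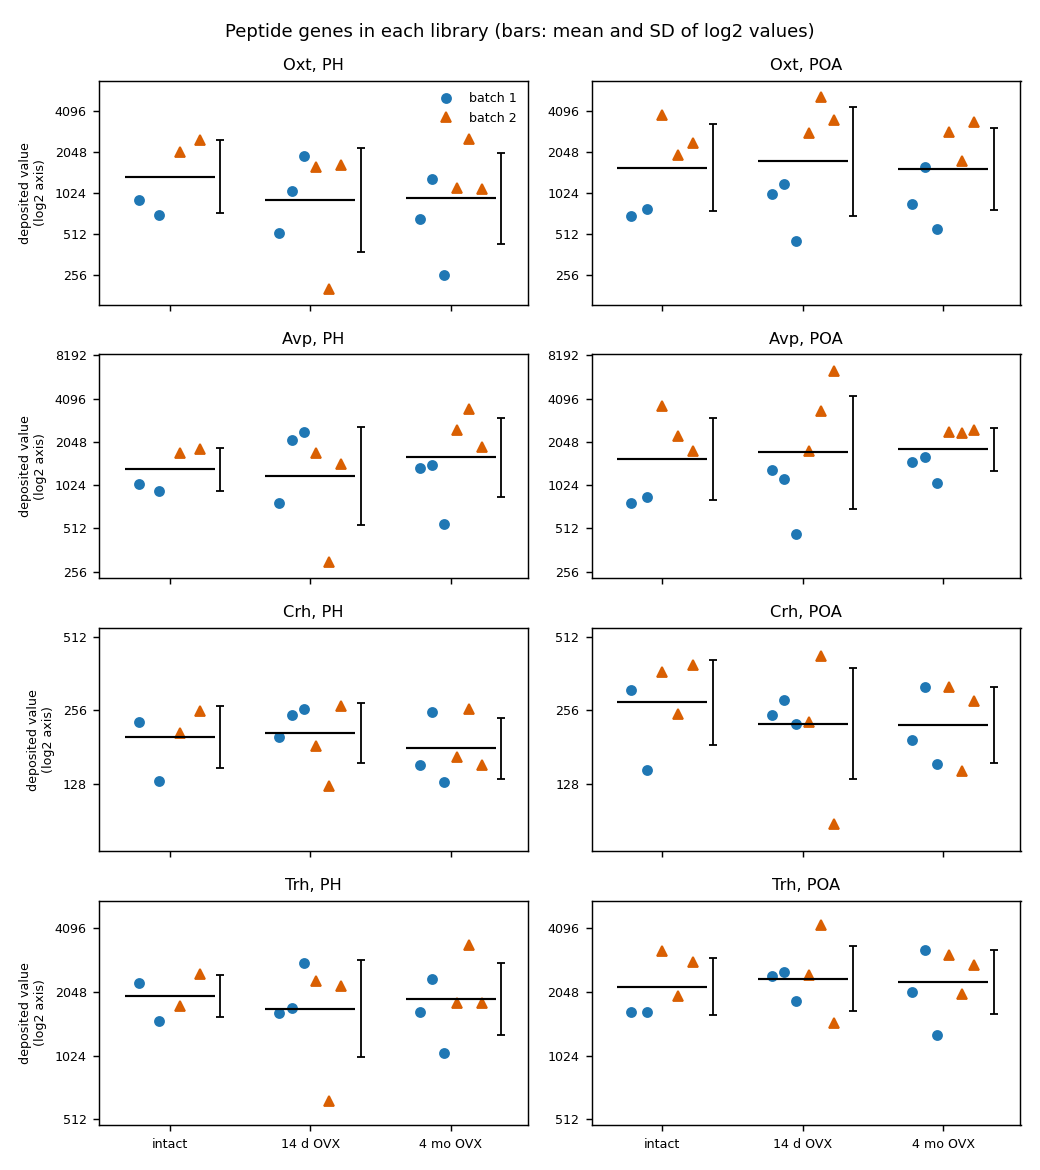
Deposited value (log2 axis) of *Oxt*, *Avp*, *Crh* and *Trh* in each library of the PH (left, 4, 6 and 6 libraries) and POA (right, 5, 6 and 6 libraries) by group. Circles are batch 1 and triangles batch 2, horizontal lines and bars are the mean and SD of log2 values. In the POA, every batch 2 library lies above every batch 1 library for *Oxt* and *Avp*, in all 3 groups.

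The receptors are spread over many cell types. *Oxtr*, the oxytocin receptor, was 381, 374, 409 and 397 in the intact PH, 374 to 557 with a median of 474 at 14 days, and 332 to 437 with a median of 401 at 4 months. Values at 14 days exceeded all 4 intact values in 4 of 6 libraries, and the highest, 557, came from the library with the extreme SV1 score. The log2 difference between 4 months and 14 days was −0.22 ± 0.11 (0.856-fold, 95% interval 0.731 to 1.00, adjusted *P* = 1.00 by limma), with −0.23 in batch 1 and −0.28 in batch 2. In the POA, *Oxtr* ranged from 351 to 490.1 in the intact libraries and from 322 to 477 after OVX. The 95% interval against intact in the POA at 4 months, 0.833-fold to 1.16-fold, was narrow beside those of the peptides.

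*Avpr1a*, the main vasopressin receptor of the brain, was 241, 201, 249 and 259 in the intact PH, 228 to 305 with a median of 268 at 14 days, and 155 to 330 with a median of 201 at 4 months. In the PH at 4 months, 4 of 6 libraries lay below every library at 14 days, whereas 1 lay above them all. This gave the smallest unadjusted *P* of the 54 tests, with a log2 difference of −0.40 ± 0.15 (0.756-fold, adjusted *P* = 1.00 by limma). It was −0.50 within batch 1 and −0.10 within batch 2. In the POA, *Avpr1a* was 242 to 305 in the intact libraries and 162 to 352 after OVX, with log2 differences from intact of −0.07 ± 0.20 and −0.14 ± 0.20.

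*Crhr1* encodes the receptor through which CRH acts on pituitary corticotropes and on many neurons. It was 200.2, 278, 338 and 394 in the intact PH, 168 to 351 with a median of 300.0 at 14 days, and 253 to 559 with a median of 373 at 4 months. The log2 difference from intact at 4 months was 0.25 ± 0.13 (adjusted *P* = 0.850 by limma). In the POA, *Crhr1* was 345, 290.4, 434, 408 and 406 in the intact libraries, 268 to 372 with a median of 308 at 14 days, and 256 to 402 with a median of 338 at 4 months. The POA difference at 14 days was −0.21 ± 0.09 (0.866-fold, 95% interval 0.757 to 0.992, adjusted *P* = 0.807 by limma), and had the same sign within batch 1 (−0.16) and batch 2 (−0.29). The anterior pituitary markers were also higher in that group, as given above, and their part in this value was not tested. The regions had opposite signs at 4 months, with an interaction of 0.35 ± 0.15 (adjusted *P* = 1.00 by limma). *Crhr2*, the receptor preferred by the urocortins, differed by at most 0.11 on the log2 scale in the 6 comparisons with SV1. Without a covariate, its PH difference between 4 months and 14 days was 0.31, with 0.09 in batch 1 and 0.52 in batch 2. *Crhbp* differed by between −0.17 and 0.01 with SV1, and by between −0.32 and 0.07 within single batches.

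**Figure D3:**
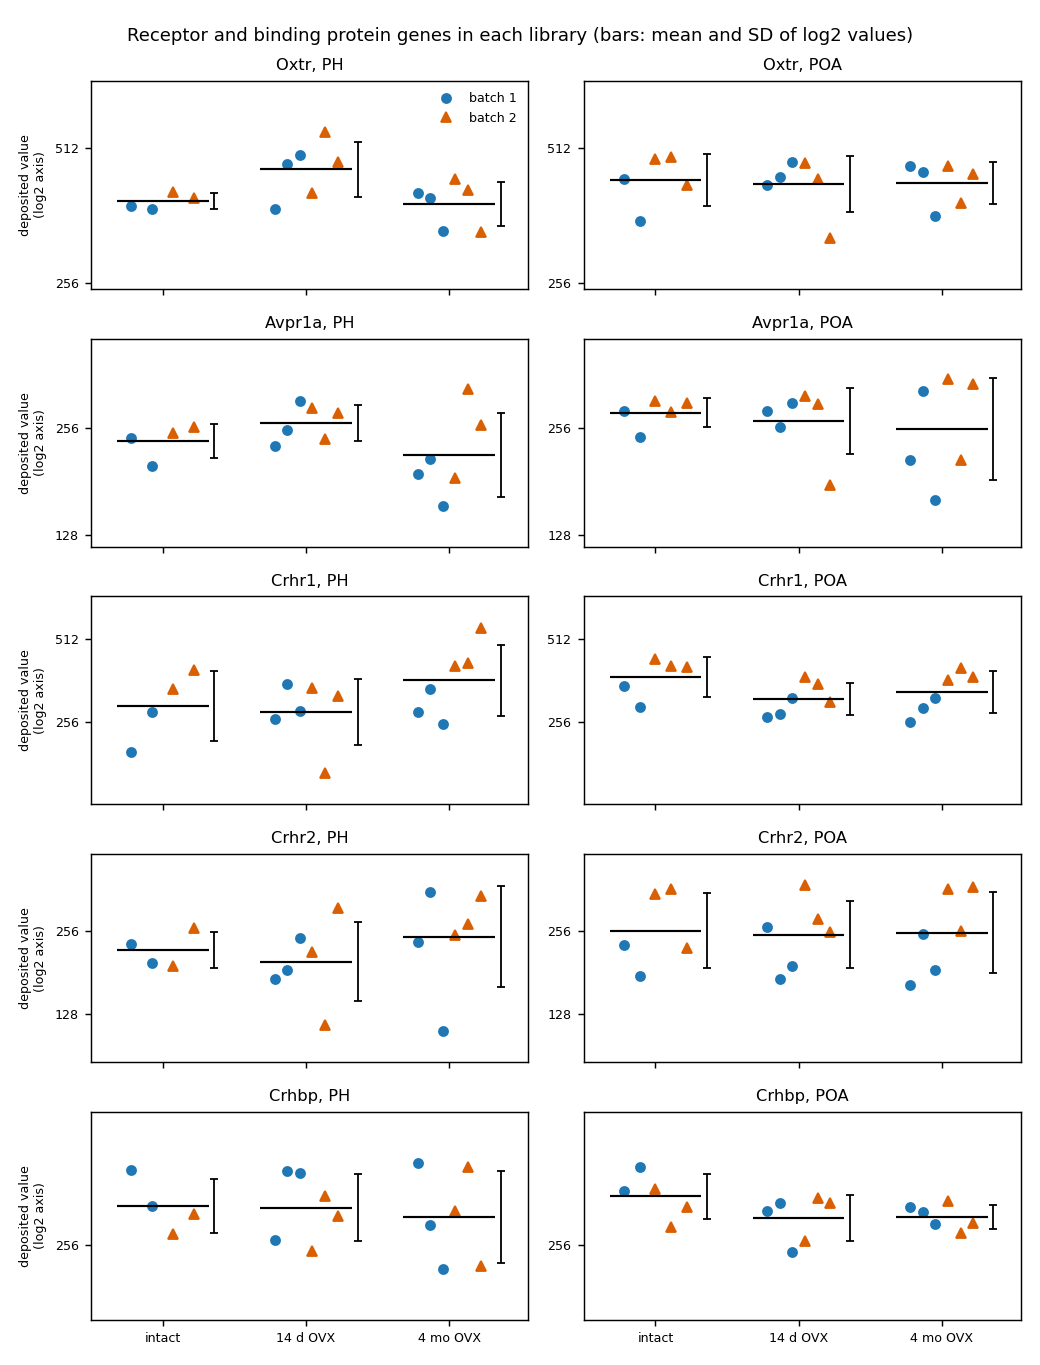
Deposited value (log2 axis) of *Oxtr*, *Avpr1a*, *Crhr1*, *Crhr2* and *Crhbp* in each library of the PH (left) and POA (right) by group. Circles are batch 1 and triangles batch 2, horizontal lines and bars are the mean and SD of log2 values. All groups overlap, and in the POA 8 of the 9 batch 2 libraries lie above every batch 1 library for *Crhr1*.

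The batches, in contrast, separated *Oxt* and *Avp* in the POA. *Oxt* was 452 to 1583 in the 8 libraries of batch 1 and 1747 to 5196 in the 9 libraries of batch 2, and *Avp* was 472 to 1595 and 1776 to 6382. Both pairs of ranges are without overlap, but the share of all genes without overlap between the batches was not determined. Batch 2 was higher by 1.84 on the log2 scale for *Oxt* (3.57-fold, adjusted *P* = 7.78e-05 by limma with group in the model) and by 1.44 for *Avp* (2.71-fold, adjusted *P* = 0.00108). *Crhr2* was also higher in batch 2 (0.63, 1.55-fold, adjusted *P* = 6.71e-04 by limma), as was *Crhr1* (0.35, 1.28-fold, adjusted *P* = 4.56e-04). These were 4 of 9 members called, all higher in batch 2, where 20% of all 21361 genes were called higher and 39.8% in either direction. A count of 4 of 9 is near the share called in either direction. The sizes of the *Oxt* and *Avp* differences stood at the 99.9th and 99.8th percentile of all tested genes. Both genes also had a wide spread between libraries, as given below. By limma *P* they ranked only 2347 and 4130 of 21361 genes, and *Crhr1* (3480) and *Crhr2* (3748) ranked before *Avp*. The other 5 members were not called, with *Oxtr* at 0.03, *Crh* at 0.14, *Avpr1a* at 0.14, *Trh* at 0.35 and *Crhbp* at −0.05.

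Genes with related roles had batch differences of both signs in the POA. Among the 5 transcription factors of the paraventricular and supraoptic nuclei, *Arnt2* was called higher (0.16) and *Pou3f2* lower (−0.35), whereas *Sim1* (−0.05), *Otp* (0.32) and *Sim2* (0.36) were not called. Their summed level was 13993 to 15768 in batch 1 and 14084 to 18113 in batch 2. Of the 9 suprachiasmatic markers, 0 were called, and their summed level was 3953 to 5653 and 4087 to 7717. Among 7 other genes of magnocellular neurons, *Vgf* (0.63), which encodes a secreted granule protein, and *Nos1* (0.20), which encodes neuronal nitric oxide synthase, were called higher. Of 10 genes for neuropeptide processing enzymes and granule proteins, 2 were called higher (*Pcsk1n* 1.27 and *Chga* 0.23) and 5 lower, among them *Cpe* (−0.51) and *Pcsk1* (−0.30). Of the 6 tested genes among other members of the oxytocin and vasopressin pathway, 5 were called lower in batch 2, where 19.7% of all genes were. They include *Lnpep* (−0.37), whose product cleaves both peptides, and *Cd38* (−0.35), needed for oxytocin release, whereas the G protein gene *Gna11* was called higher (0.26). Of 9 other genes of the CRH family and glucocorticoid feedback, 4 were called lower, among them *Fkbp5* (−0.46), a glucocorticoid target, and 0 higher. All 6 neuron markers were called, 4 of them lower (*Snap25*, −0.34) and 2 higher (*Tubb3*, 0.45). The part of these markers in the batch difference of *Oxt* and *Avp* was not tested.

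In the PH, no member was called between the batches (background 1.28% of 21992 genes), and the *Oxt* difference was 0.73 (adjusted *P* = 0.500 by limma). Without replicate 5 at 14 days, *Oxt* (1.14, 2.20-fold, adjusted *P* = 0.0467 by limma) and *Crhr1* (0.49, adjusted *P* = 0.00574) were called higher in batch 2, with 24.3% of all genes called. This fit was singled out of 16 that each left out 1 library, and gave the smallest adjusted *P* of both genes. Their largest adjusted *P* over these fits was 0.685 for *Oxt* and 0.535 for *Crhr1* (limma). The share of members called was near that of all genes, so these calls are not shown to be particular to the members.

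The spread between libraries of a group was wide for *Oxt* and *Avp*. In the PH, the SD of log2 values within groups was 1.12 for *Oxt*, 0.93 for *Avp*, 0.61 for *Trh* and 0.42 for *Crh*, at percentiles 99.4, 99.0, 97.1 and 88.0 of all tested genes, whose median was 0.26. In the POA, it was 1.14 for *Oxt*, 0.98 for *Avp*, 0.63 for *Crh* and 0.49 for *Trh*, at percentiles 99.7, 99.5, 98.3 and 96.4, with a median over all genes of 0.22. Within group and batch, the POA values were 0.58 for both *Oxt* and *Avp*, still at percentiles 98.3 and 98.4, with a median over all genes of 0.17. In the PH they were 1.07 and 0.84, at percentiles 99.4 and 98.8, with a median of 0.25. The receptors did not form a less variable class. *Crhr2* had an SD of 0.49 in the PH, above *Crh*, and 0.45 in the POA, close to *Trh*, and *Crhr1* in the PH (0.41) was level with *Crh*. *Oxtr* (PH 0.17, POA 0.19) and, in the POA, *Crhbp* (0.14) were less variable than the median gene.

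Levels of the peptide genes were compared pair by pair over the libraries. In each region 6 pairs were tested, with permutation *P* values adjusted over 12. In the PH (n = 16), all 6 pairs had positive correlations with an adjusted *P* under 0.05. The permutations exchanged libraries across groups and batches. How many other gene pairs correlate as strongly was not determined, so this count is not shown to be particular to the peptide genes. For *Oxt* and *Avp*, *r* was 0.889 (permutation *P* = 1e-05, the smallest that 100000 permutations can give, adjusted *P* = 6e-05) and rho 0.762 (*P* = 0.001), and *r* was 0.728 without the 2 libraries farthest from the median of *Oxt*. For *Oxt* and *Trh*, *r* was 0.898 and rho 0.850, and for *Crh* and *Trh* *r* was 0.789 and rho 0.806. The weakest pair was *Avp* and *Crh* (*r* 0.617, rho 0.571), whose *r* was 0.326 without the 2 farthest libraries (permutation *P* = 0.256), so that it rests on those libraries.

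Within the PH batches (n = 8 each), *Oxt* and *Avp* correlated in batch 1 (*r* 0.899, exact permutation *P* = 0.00268, adjusted over 24 relations *P* = 0.0161). In batch 2, *r* was 0.880 but rho only 0.357, and *r* was −0.482 without the 2 farthest libraries. The batch 2 value thus rests on those libraries, which include replicate 5 at 14 days, the lowest for *Oxt* (202), *Avp* (301) and *Trh* (628) alike. *Oxt* and *Crh* had similar values in both batches (*r* 0.795 and 0.839, exact permutation *P* = 0.0124 and 0.00156, rho 0.905 and 0.857).

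In the POA, the batches form separate clusters for *Oxt* and *Avp*, so that only values within batches are given for pairs with either gene. *Oxt* and *Avp* had an *r* of 0.789 in batch 1 (n = 8, exact permutation *P* = 0.0193, adjusted *P* = 0.0421) and 0.548 in batch 2 (n = 9, exact permutation *P* = 0.126), with rho 0.833 and 0.783. *Crh* and *Trh* correlated over all 17 libraries (*r* 0.802, permutation *P* = 1.4e-04, rho 0.799), with 0.685 in batch 1 (exact permutation *P* = 0.0635) and 0.912 in batch 2 (exact permutation *P* = 2.34e-04, adjusted *P* = 0.00562). *Oxt* and *Trh* correlated in batch 1 (*r* 0.841, exact permutation *P* = 0.00994, adjusted *P* = 0.0298), with 0.529 in batch 2 (exact permutation *P* = 0.140). The other pairs missed the threshold within both batches. These were *Oxt* and *Crh* (*r* 0.521 and 0.299, exact permutation *P* = 0.188 and 0.433), *Avp* and *Trh* (*r* 0.513 and −0.288, exact permutation *P* = 0.195 and 0.451) and *Avp* and *Crh* (*r* 0.146 and −0.479, exact permutation *P* = 0.741 and 0.191).

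Over both regions, 11 of 24 relations within batches had an adjusted *P* under 0.05, and 1 of these 11 kept it when the 2 libraries farthest from the median were left out (*Oxt* and *Trh* in POA batch 1). For *Oxt* and *Avp*, *r* fell to 0.706 in PH batch 1 and to 0.420 in POA batch 1 (n = 6 each, exact permutation *P* = 0.118 and 0.410). The other 10 therefore rest on those libraries or on the size of the batch, which these values cannot tell apart.

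**Figure D4:**
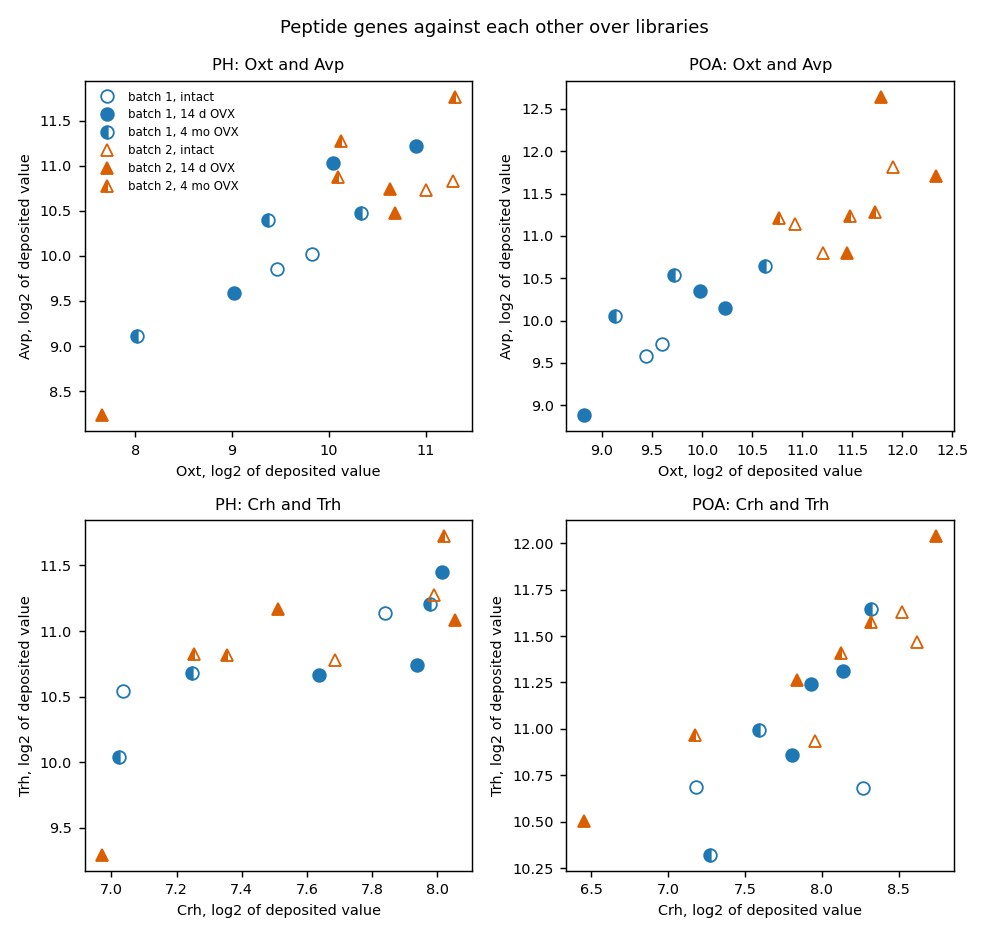
*Avp* against *Oxt* (top) and *Trh* against *Crh* (bottom), as log2 of the deposited value, in each library of the PH (left, n = 16) and POA (right, n = 17). Circles are batch 1 and triangles batch 2, and the fill gives the group. In the POA, the batches form separate clusters for *Oxt* and *Avp* but are mixed for *Crh* and *Trh*, and in the PH the same 2 libraries lie lowest in *Oxt* (202 and 258) and *Avp* (301 and 552).

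The genes with the most similar pattern were found from deviations from group means over all tested genes of a region. In the PH (n = 16), the closest to *Oxt* was *Erp29* (*r* 0.956), to *Avp* *Usp11* (0.979), to *Crh* *Kcna5* (0.915) and to *Trh* *Fdps* (0.960). In the POA (n = 17), *Crh* was most like *2610028E06Rik* (0.961), *Lhx6* (0.960), *Lhx8* (0.958) and *Tbr1* (0.958), the last 3 being transcription factors of forebrain neurons. *Trh* in the POA was most like *Resp18* (0.947), *Mrap2* (0.938) and *Rxfp3* (0.937). *Oxt* was most like *Fam131c* (0.963) and *Avp* most like *Arvcf* (0.948) there, both with the batch difference in the deviations. With deviations from group and batch means, a choice made after seeing the data, the closest genes to *Oxt* in the POA were *Syt10* (0.897) and *Gm47357* (0.879), while *Resp18* stayed closest to *Trh* (0.949). The points share their library and its tissue composition, and no test was made.

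The promoters of the neighbors *Oxt* and *Avp* are shown as the 250 bases before each gene start in GRCm39. Capitals mark the estrogen response half-site, TGACC or GGTCA on the other strand, which was searched in 21751 promoters of this length. The windows are chr2:130417841-130418090 (+) for *Oxt* and chr2:130424641-130424890 (−) for *Avp*.
Oxt: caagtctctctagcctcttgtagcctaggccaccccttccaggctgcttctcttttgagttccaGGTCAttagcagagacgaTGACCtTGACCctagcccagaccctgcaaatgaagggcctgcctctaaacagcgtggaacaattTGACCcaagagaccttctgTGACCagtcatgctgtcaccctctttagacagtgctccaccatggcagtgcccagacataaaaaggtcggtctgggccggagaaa
Avp: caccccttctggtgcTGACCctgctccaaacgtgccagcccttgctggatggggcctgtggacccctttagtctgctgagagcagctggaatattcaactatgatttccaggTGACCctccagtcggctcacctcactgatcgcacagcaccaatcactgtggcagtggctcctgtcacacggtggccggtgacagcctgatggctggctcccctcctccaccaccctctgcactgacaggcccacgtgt

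The *Oxt* window holds 5 half-sites and the *Avp* window 2, where 34.1% of all promoters hold at least 1. *Oxtr*, *Crh* and *Trh* hold 1 each, and the windows of *Avpr1a*, *Crhr1*, *Crhr2* and *Crhbp* hold none. The cAMP response element TGACGTCA, which reads the same on both strands and contains the half-site TGACG, was present in *Crh* alone among the 9 genes (1.7% of all promoters). The E-box CACGTG, the same on both strands and without overlap with the other motifs, was present in *Avp* alone (6.26% of all promoters). These matches describe the letters only, and binding was not measured. Their part in the levels of these genes was not tested.

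Of 57 other genes of these pathways, from 7 lists, 54 were tested in the PH and 53 could be tested for the POA. None was called in any of the 6 comparisons within a region, and the smallest adjusted *P* values were found in the POA at 4 months (background 0.0936% called). *Vgf* was 6673, 5654, 11230.1, 9574 and 10410 in the intact POA and 4224 to 7334 with a median of 5982 at 4 months. The groups overlapped over all libraries, whereas within each batch the 3 libraries at 4 months lay below every intact one. *Vgf* was named for its small *P*, which comes from the same values, so this order is no further support. The share of all genes with such an order was not determined. The log2 difference was −0.45 ± 0.10 (0.731-fold, adjusted *P* = 0.134 by limma). *Pgr*, the progesterone receptor gene and a classical estrogen target, differed by −0.24 ± 0.06 in the POA (0.846-fold, adjusted *P* = 0.199 by limma) and by −0.22 ± 0.09 in the PH (adjusted *P* = 0.712).

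*Cartpt*, a peptide gene of magnocellular and arcuate neurons among others, had opposite signs in the regions at 4 months, with a PH difference of 0.56 ± 0.16 and a POA difference of −0.55 ± 0.18. The interaction was 1.13 ± 0.24 (adjusted *P* = 0.375 by limma). Of the 10 processing and granule genes, *Scg2* in the POA at 4 months (−0.23 ± 0.07, adjusted *P* = 0.313) and *Pam*, the amidating enzyme, in the PH at 14 days (0.26 ± 0.10, adjusted *P* = 1.00) were the most different. The 11 other TRH and thyroid hormone genes and the 5 transcription factors had no unadjusted *P* under 0.05 in any of the 6 comparisons. *Esr1*, the gene of estrogen receptor α, differed in the PH at 14 days by 0.39 ± 0.12 (adjusted *P* = 1.00 by limma).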

How the data were processed

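Expression in 16 PH and 17 POA libraries was taken from 1 table deposited by the authors. The authors pseudoaligned stranded mRNA reads to the mm39 transcriptome with kallisto and used DESeq2 with a surrogate variable. The deposited values are a normalized expression signal on a linear scale, and the authors' step from counts to this signal is not given in the sources used here. The read depth per library is therefore unknown, and no precision from depth can be stated. Of 42824 entries, the 1259 lacking a gene symbol did not enter any fit.

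Groups came from the sample titles and labels. Log2 values were taken without a pseudocount. Genes at 2 times the floor or more in at least 4 PH or 5 POA libraries were tested with limma 3.58.1 (R 4.3.3, trend and robust variance) with the 3 groups and SV1 in 1 model per region, SV1 being estimated by iterative reweighting in 5 rounds. A count test had been planned, and limma was used because the values are not counts. Adjustment of *P* (Benjamini-Hochberg) covered all tested genes, and a call required an adjusted *P* under 0.05. The region difference was an interaction over 33 libraries with 22136 genes, without a term for animals that may have given both regions. Batches were compared in a fit with group and batch. Correlations used exact permutation under 10 libraries and 100000 permutations otherwise, two-sided. The fits were tested on simulated data.

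The members and gene lists were chosen with earlier results of these data known. Named genes are all members, the list genes with the smallest *P* in a comparison, and the 5 genes most like each peptide gene, of which the closest are given. Positions and sequences were read from GRCm39 with GENCODE M39, in which 40593 of 41565 symbols matched. Alternatives covered the covariate, batch, replicate number as a block, low-value filter, pseudocount, centering, variance model and each library left out. Python 3.11.15, scipy 1.17.1 and statmod 1.5.0 were also used.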

Additional observations from a re-analysis of the deposited data

Results flagged for a closer look

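Within each group of 4 to 6 libraries, the gap from the lowest or highest library to its nearest neighbor was divided by the range of the group. Gap and range were taken on log2 values, whereas the values printed below are on the deposited linear scale. Of 54 groups tested, 4 exceeded the 95% critical value of Dixon's test, and chance alone exceeds it in about 1 of 20 groups. *Oxtr* in replicate 6 of the POA 14 days after OVX was 322, against 424 to 477 in the other 5 (ratio 0.7019). *Avpr1a* in the same library was 177, against 258 to 316 (ratio 0.6494). This library also had the lowest *Crh* value of the POA (87.7), the highest *Avp* value (6382) and summed thalamus markers of 42913. *Crhr2* in replicate 3 of the PH 4 months after OVX was 111, against 235 to 356 (ratio 0.6447), in the library with the highest thalamus markers of the series (45031) and lateral and mammillary markers of 12260. *Trh* in replicate 5 of the PH 14 days after OVX was 628, against 1621 to 2801 (ratio 0.6342), in the library with the extreme SV1 score. The part of these markers and of SV1 in the low values was not tested.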

How the results depend on the processing

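Members called stayed at 0 in every comparison of groups, under each alternative run and with each library left out. Of 792 values under alternatives, 88 had the opposite sign, as did 135 of 1485 with 1 library left out. The *Oxt* difference in the PH between 4 months and 14 days was 0.0496 with batch in place of SV1, with no covariate and with only the 2 groups, and 0.85 in batch 2 alone, where that of *Crh* was 0.0304. In the POA at 4 months against intact, *Oxt* was −0.0417 without a covariate, −0.0240 in batch 2 alone and, in a fit chosen after seeing the data, −0.0427 with batch and the subtracted component. *Avp* was −0.0076 in batch 2 alone and *Crh* 0.0033 in batch 1 alone. Correlations over all libraries of a region with adjusted *P* under 0.05 numbered 9 of 12. The 9 include *Oxt* with *Avp* and *Oxt* with *Trh* in the POA, where the batches lie apart for *Oxt* and *Avp*. The number was 5 in batch 2 alone and 6 in batch 1, where n is 8 or 9. *Avp* in the PH at 14 days against intact was −0.148 with batch in place of SV1, with no covariate and with only the 2 groups, −0.97 in batch 2 alone and −0.0464 with batch and the subtracted component. With 1 library left out, *Avp* in the PH at 4 months ran from −0.0078 (without replicate 5 at 4 months) to 0.35, and *Crhr2* between 4 months and 14 days from −0.0866 (without replicate 2 at 4 months) to 0.29. The causes were not tested.

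Over all genes, calls in the POA at 4 months ranged from 0 (batch 1 alone) to 55 (component and batch), against 20, and from 4 (without replicate 1 of the intact group) to 37 (without replicate 6 at 14 days) with 1 library left out. Those of the PH at 4 months ranged from 0 to 9, against 7, and from 5 to 14 (without replicate 3 at 4 months) with 1 library left out, and those of the POA at 14 days from 0 to 4, against 1. In the PH, 282 genes were called between batches, but 5339 without replicate 5 at 14 days and 49 without replicate 4 of the intact group.

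With replicate number as a block, the *Oxt* difference in the PH at 4 months was −0.82 (adjusted *P* = 0.857 by limma), and 0 members were called. The labels do not say what a replicate number marks. Deviations from the group means had a median correlation of 0.193 (PH) and 0.274 (POA) between libraries of 1 number and batch, and of 0.146 and 0.275 between those of 1 batch with different numbers. Of the former, 9 of 12 and 14 of 14 exceeded 0.1, against 17 of 30 and 32 of 34 of the latter. Between libraries of 1 number across batches, 0 of 2 per region did. The closest library of another group had the same number for 6 of 16 and 5 of 17 libraries. The numbers were not taken to pair the samples.

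The lack of counts, groups of 4 to 6 libraries and the wide spread of the peptide genes limit what could be seen. For *Oxt* in the PH at 4 months, the 95% interval, 0.338-fold to 1.16-fold, holds both a marked fall and a slight rise.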
